A study of Homo sapiens with 4 samples.

Results

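The Ndc80 and Mis12 complexes are the part of the outer kinetochore that holds a chromosome on the spindle, and the 9 genes described here encode their subunits and the associated protein ZWINT. All probe sets with a single gene symbol that names one of these genes were taken, which gave 13 probe sets for 9 of the 19775 genes, among 54675 probe sets on the array. The RNA came from 2 human lung adenocarcinoma lines, CL1-0 and CL1-5, the second a more invasive subline selected from the first. CL1-0 cells carried an AK4 vector or a control vector, and CL1-5 cells carried an AK4 shRNA vector or a non-silencing shRNA vector. All 4 cultures were stably transduced and selected with puromycin, and each was read on 1 Affymetrix array. AK4 is a mitochondrial adenylate kinase.

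The members were chosen with ratios of these arrays in view, so every value of them is a description. With 1 array in each group there is no test, no p-value and no replicate error, and so few arrays limit how precise any value is. Signals are intensities scaled to a common trimmed mean, and a floor was set at a signal of 6.94. Values under the floor were raised to it before log2 was taken. A gene was read from its brightest probe set, and a ratio of at least 2-fold, which is 1 on the log2 scale, was counted as higher or lower.

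The kinetochore forms on the centromere of each chromosome and is assembled for cell division. The Ndc80 complex is a rod of 4 subunits. NDC80 and NUF2 form the end that grips the microtubule, and SPC24 and SPC25 form the end that docks on the inner kinetochore. The Mis12 complex, made of MIS12, DSN1, NSL1 and PMF1, joins that docking end to the centromere protein CENP-C and also carries the scaffold KNL1, on which checkpoint proteins gather. ZWINT binds KNL1 and helps to recruit the RZZ complex. Many genes of mitosis are transcribed late in the cell cycle. Promoter elements known from cell cycle genes are the CHR element, bound by complexes that contain MuvB proteins, the CCAAT box, bound by NF-Y, and E2F sites. An E2F site alone does not mark late transcription.

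The promoters of the 4 Ndc80 complex genes are shown because all of them passed 2-fold both under the AK4 vector label in CL1-0, a label that the AK4 signals given below do not bear out, and between the lines, and that of PMF1 because it had the lowest ratio of the set in both. Each sequence is from RefSeq on GRCh38.p14, in the direction of transcription, and runs from 250 bases before the annotated start to 30 bases after it. The windows are chr18:2571307-2571586 on the plus strand for NDC80, chr1:163321704-163321983 on the plus strand for NUF2, chr19:11155753-11156032 on the minus strand for SPC24, chr2:168890401-168890680 on the minus strand for SPC25 and chr1:156212757-156213036 on the plus strand for PMF1. Capitals mark exact matches on either strand. The letters searched were TTTGAA and also TTCGAA for the CHR element, CCAAT for the box of that name, and TTCCCGC and also TTGGCGC for the E2F site.
NDC80: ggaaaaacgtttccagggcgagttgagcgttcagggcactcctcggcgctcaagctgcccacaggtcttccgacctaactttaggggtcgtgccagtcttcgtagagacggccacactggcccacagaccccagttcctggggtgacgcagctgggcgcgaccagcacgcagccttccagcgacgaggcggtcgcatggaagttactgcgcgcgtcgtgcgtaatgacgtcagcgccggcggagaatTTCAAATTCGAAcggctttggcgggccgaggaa
NUF2: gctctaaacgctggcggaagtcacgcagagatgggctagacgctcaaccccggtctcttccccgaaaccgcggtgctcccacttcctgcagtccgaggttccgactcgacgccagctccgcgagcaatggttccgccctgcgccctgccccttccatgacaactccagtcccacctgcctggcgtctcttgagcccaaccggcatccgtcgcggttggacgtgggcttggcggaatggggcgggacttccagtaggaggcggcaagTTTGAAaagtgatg
SPC24: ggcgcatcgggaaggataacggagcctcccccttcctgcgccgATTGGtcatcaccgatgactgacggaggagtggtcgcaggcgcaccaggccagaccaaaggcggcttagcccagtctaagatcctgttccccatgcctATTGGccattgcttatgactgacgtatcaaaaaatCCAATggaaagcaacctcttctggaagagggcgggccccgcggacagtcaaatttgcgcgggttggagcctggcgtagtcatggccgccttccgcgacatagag
SPC25: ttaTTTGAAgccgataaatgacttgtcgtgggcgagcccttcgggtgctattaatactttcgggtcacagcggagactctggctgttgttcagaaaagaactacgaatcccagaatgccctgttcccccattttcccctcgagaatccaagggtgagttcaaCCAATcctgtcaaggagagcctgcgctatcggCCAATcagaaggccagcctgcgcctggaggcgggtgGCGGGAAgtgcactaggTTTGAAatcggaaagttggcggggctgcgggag
PMF1: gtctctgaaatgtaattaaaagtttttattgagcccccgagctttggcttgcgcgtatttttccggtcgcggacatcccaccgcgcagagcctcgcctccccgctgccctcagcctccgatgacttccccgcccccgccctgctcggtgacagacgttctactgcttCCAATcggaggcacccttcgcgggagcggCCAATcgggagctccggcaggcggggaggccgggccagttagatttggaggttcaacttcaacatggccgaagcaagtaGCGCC

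A CHR match was found for 3 of the 4 Ndc80 complex genes. In NDC80 a minus-strand CHR match from base -3 to 3, counted from the start as base 1, was followed directly by another from base 4 to 9. NUF2 had one from base 17 to 22. SPC25 had it from base -3 to 3 and again from base -247 to -242, with CCAAT boxes from base -88 and from base -56 and an E2F match from base -20 to -14. SPC24 had 3 CCAAT matches and no exact CHR match in this window. PMF1 had 3 CCAAT matches and 1 E2F match, and that E2F match, from base 26 to 32, overlaps the third CCAAT match and runs past the end of the sequence shown.

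All 9 members had a RefSeq window from 250 bases before the start to 50 after it, with 2 windows each for MIS12 and ZWINT. In these windows 4 members had a CHR match, the other one being ZWINT, 5 had a CCAAT match and 4 had an E2F match. DSN1 and NSL1 had none of these letters. Over all 35116 promoter windows of this length, 16.4% held a CHR match, 34.6% a CCAAT match and 9.23% an E2F match. SPC25 and ZWINT held a CHR and a CCAAT match together, as did 6.38% of all windows. A match is a description of the sequence, not a measured binding site.

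The arrays differed in ways that bear on the comparisons. AK4, the targeted gene, was read by 4 probe sets. Their log2 ratios lay between -1.25 and -0.88 for AK4 shRNA over non-silencing shRNA in CL1-5, and between -0.25 and -0.05 for AK4 vector over control vector in CL1-0, so no probe set showed the vector. Where these probe sets lie on the transcript is not known here, and every direction below drawn from the CL1-0 array labelled AK4 vector rests on that label. Beta-actin's 3' to 5' signal ratio, a gauge of RNA degradation, was 6.54 under the AK4 vector label and 6.04 with control vector in CL1-0, and 1.61 with AK4 shRNA and 1.34 with non-silencing shRNA in CL1-5. The same ratio for GAPDH was 1.54 under the AK4 vector label and 1.25 with control vector, and 1.07 with AK4 shRNA and 1.04 with non-silencing shRNA, a smaller gap between the lines. The labels call the cells type II alveolar. Of 10 marker genes of that cell type 8 were on the array with a single symbol, with 6 and 7 above the floor in CL1-0 (AK4 vector, then control vector) and 5 on each CL1-5 array, while SLC34A2 was under the floor on all 4 arrays. SFTPC lay between 24.0 and 30.8 on all 4 arrays.

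The subunits that bind the microtubule had low signals in CL1-0 control cells and higher ones on the other arrays. NDC80 had a signal of 91.3 under the AK4 vector label and 23.2 with control vector in CL1-0, and of 267 with AK4 shRNA and 238 with non-silencing shRNA in CL1-5. Its partner NUF2 had 201 under the AK4 vector label and 44.6 with control vector, and 374 with AK4 shRNA and 335 with non-silencing shRNA. For both genes the CL1-0 control array was the lowest, the array labelled AK4 vector came next and the CL1-5 arrays lay together at the top.

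The docking subunits had the same order of lines but differed in size. SPC25 had a signal of 97.2 under the AK4 vector label and 18.5 with control vector in CL1-0, and of 351 with AK4 shRNA and 357 with non-silencing shRNA in CL1-5. From the lowest to the highest array its signal differed 19.3-fold, the widest span of the 13 probe sets. SPC24 had 44.1 under the AK4 vector label and 21.8 with control vector, and 93.6 with AK4 shRNA and 100 with non-silencing shRNA. Its span was 4.60-fold, the narrowest of the 4 subunits. A second probe set annotated to SPC24, 217183_at, lay between 14.9 and 17.6 on all 4 arrays and did not show the differences of 235572_at, the one used for the gene. Whether 217183_at reads SPC24 could not be checked without probe sequences.

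The Mis12 complex genes did not share one pattern. MIS12 itself had a signal of 94.1 under the AK4 vector label and 108 with control vector in CL1-0, and of 101 with AK4 shRNA and 100 with non-silencing shRNA in CL1-5. That is a span of 1.15-fold over the 4 arrays. DSN1, the subunit through which Aurora B regulates the complex, had 52.4 under the AK4 vector label and 28.9 with control vector, and 112 with AK4 shRNA and 96.6 with non-silencing shRNA, the same order of arrays as NDC80. NSL1 had its highest signal on the array labelled AK4 vector, at 339 under the AK4 vector label and 167 with control vector, against 218 with AK4 shRNA and 200 with non-silencing shRNA. PMF1, also known as a polyamine-responsive factor, was highest on the CL1-0 control array, at 134 under the AK4 vector label and 261 with control vector, and had 109 with AK4 shRNA and 128 with non-silencing shRNA. ZWINT separated the lines without separating the CL1-0 arrays as far. Its signal was 244 under the AK4 vector label and 199 with control vector, and 688 with AK4 shRNA and 787 with non-silencing shRNA.

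**Figure D1:**
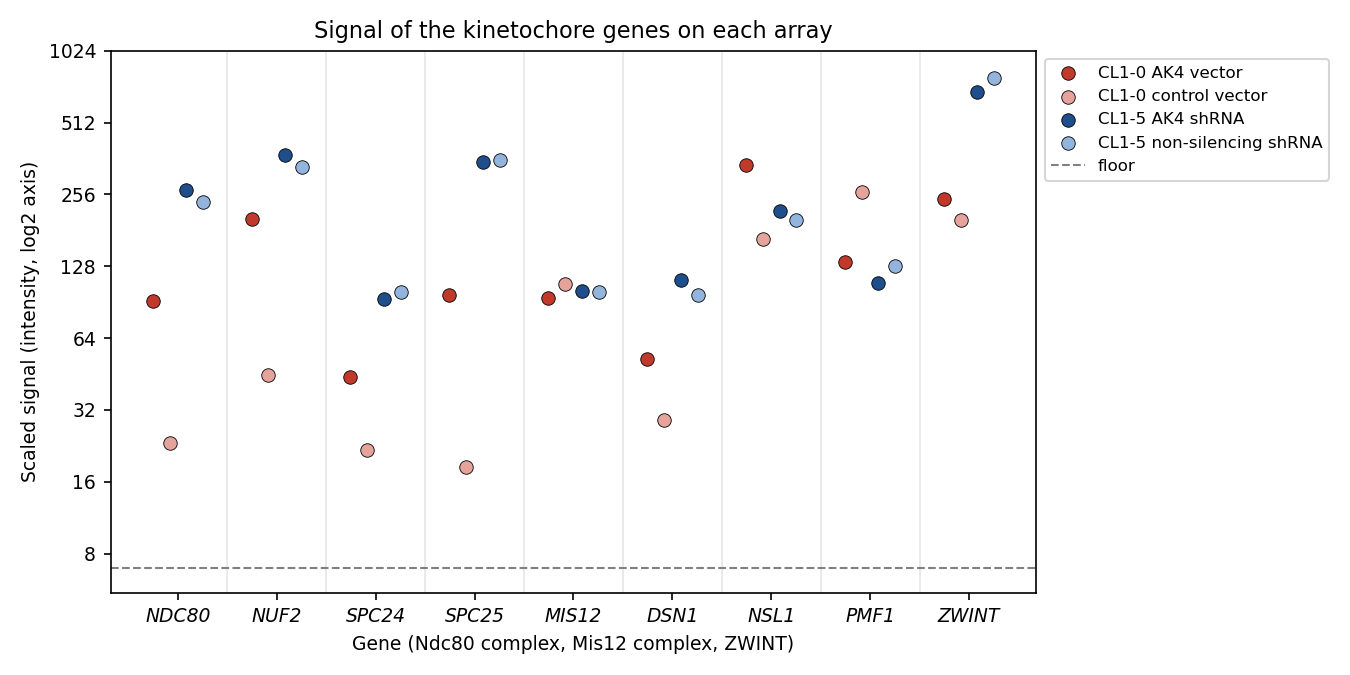
Scaled signal of the probe set read for each of the 9 genes (y axis, intensity on a log2 axis) on the CL1-0 AK4 vector, CL1-0 control vector, CL1-5 AK4 shRNA and CL1-5 non-silencing shRNA arrays, 1 point per array, with the floor of 6.94 dashed. Every gene except MIS12 and PMF1 has its lowest point on the CL1-0 control vector array; MIS12 spans 1.15-fold and PMF1 is highest on that array.

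The first comparison asked what differs when CL1-0 cells carry the AK4 vector. All 4 Ndc80 complex genes passed 2-fold on the array labelled AK4 vector, with higher signals there. The log2 ratios were 2.39 for SPC25, 2.17 for NUF2, 1.98 for NDC80 and 1.02 for SPC24. SPC25 was 5.25-fold higher and ranked 2 among 14677 measured genes, NUF2 ranked 3 and NDC80 ranked 11, whereas SPC24 ranked 446. In the Mis12 complex NSL1 had a ratio of 1.02 and DSN1 one of 0.86, while MIS12 was at -0.20 and PMF1 at -0.96. ZWINT was at 0.29.

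In all, 5 of 9 members passed 2-fold upwards and 0 downwards, where 3.22% of all measured genes were higher and 1.17% lower. These counts come from the values that chose the members. Their median ratio was 1.02, and that of all measured genes was 0.047. SPC24 and NSL1 lay just inside 2-fold, and DSN1 and PMF1 just outside it. With each array as deposited, 3 members were at least 2-fold higher, where 3.13% of all measured genes were. The count was again 3 with quantile normalization (2.20%) and with scaling to the median of probe sets above the floor (2.37%). These 3 were SPC25, NUF2 and NDC80 each time. With the last of these scalings PMF1 was at least 2-fold lower, at -1.06. In bulk RNA a larger share of dividing cells and more RNA of these genes per cell cannot be told apart.

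The probe sets of NSL1 disagreed in this comparison. The brightest, 209484_s_at, was at 1.02, while 235799_at was at 0.52 and 230592_at at 0.08, and 209483_s_at lay under the floor on all 4 arrays. For SPC24, 235572_at was at 1.02 and 217183_at at 0.13. Averaged over its probe sets, NSL1 had a ratio of 0.40 and SPC24 one of 0.57. The NSL1 average includes 209483_s_at, which was held at the floor on all 4 arrays and so lowers it. The SPC24 average includes 217183_at, whose match to the gene could not be checked. The scatter between probe sets of one gene over the whole array had a pooled SD of 0.41, which is not a replicate error. The ratios of MIS12 and ZWINT were smaller in size than it and those of the other members larger. The share of all measured genes with a larger ratio was not counted.

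The second comparison asked what differs when AK4 is silenced in CL1-5 cells. The 9 genes had nearly equal signals on both arrays. The ratios for AK4 shRNA over non-silencing shRNA lay between -0.23 for PMF1 and 0.22 for DSN1. NDC80 was at 0.17, NUF2 at 0.16, SPC25 at -0.02 and SPC24 at -0.10, with NSL1 at 0.13, MIS12 at 0.01 and ZWINT at -0.19. None of the 9 members reached 2-fold in either direction, where 0.0914% of 15314 measured genes were higher and 0.0131% lower, and the members' median of 0.014 stood beside -0.0014 for all measured genes. That pooled SD was 0.22 for this pair of arrays, and of the members only PMF1 had a ratio larger in size. How many of all measured genes lay within it was not counted. NSL1 had a ratio of -0.35 by 230592_at and -0.52 by 235799_at, so its sign depended on the probe set. Whether the members respond differently in the 2 lines was not tested.

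The third comparison, CL1-5 non-silencing shRNA over CL1-0 control vector, described the lines in which AK4 was altered. It shares the CL1-0 control array with the first comparison. Its arrays differ in the vector carried as well as in the line, and the parts of these cannot be told apart. AK4 itself was higher in CL1-5, with log2 ratios between 2.63 and 3.20 over its probe sets, and its part in the members' ratios was not tested. The log2 ratios of the Ndc80 complex genes were 4.27 for SPC25, 3.36 for NDC80, 2.91 for NUF2 and 2.20 for SPC24. SPC25 was thus 19.3-fold higher in CL1-5, NDC80 10.3-fold, NUF2 7.51-fold and SPC24 4.60-fold. ZWINT was at 1.98 and DSN1 at 1.74. NSL1 was at 0.26 and MIS12 at -0.11, and PMF1 was lower in CL1-5 at -1.03.

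In this comparison 6 of 9 members passed 2-fold upwards and 1 downwards, where 17.1% of 15969 measured genes were higher and 14.2% lower. The members' median was 1.98, against 0.13 for all measured genes. PMF1 lay just inside 2-fold and was at -0.99 with quantile normalization. The values as deposited were brighter in CL1-5 throughout, with a median ratio of 0.83 over all measured genes, and on that scale PMF1 was at -0.16 and MIS12 at 0.76. NSL1 had ratios of 0.26 by 209484_s_at, 1.02 by 230592_at and 1.89 by 235799_at, so its brightest probe set gave the smallest difference between the lines. The same pooled SD was 0.90 here. The ratios of NSL1 and MIS12 were smaller in size than it and those of the other members larger, and all measured genes were not counted against it. The 3' to 5' ratios of beta-actin and GAPDH, given above, differed between the lines as well, and their part in these ratios was not tested. Epithelial markers also differed, with a summed signal of 1783 and 2027 on the CL1-5 arrays (AK4 shRNA, then non-silencing) and of 52.5 and 51.5 on the CL1-0 arrays (AK4 vector, then control vector). Of these 6 markers 4 lay above the floor on each CL1-5 array, and 5 and 3 on the CL1-0 arrays; EPCAM and CDH1 lay above it on the array labelled AK4 vector alone, at 9.46 and 9.81. Endothelial markers summed to 92.4 and 83.4 in CL1-5 and to 31.6 and 33.8 in CL1-0, fibroblast markers to 130 and 148 and to 106 and 101, leukocyte markers to 31.4 and 38.6 and to 44.2 and 41.5, and alveolar type II markers to 133 and 137 and to 347 and 401, in the same order of arrays. Single genes carried much of these sums. KRT18 had 1485 and 1681 in CL1-5 and 10.8 and 12.1 in CL1-0, PECAM1 had 54.0 and 45.1 and 6.20 and 7.12, and LAMP3 had 4.66 and 5.08 and 160 and 210, while the alveolar marker NAPSA was higher in CL1-5 by 1.05 on the log2 scale. At most 3 of 5 endothelial, 5 of 7 fibroblast and 3 of 5 leukocyte markers lay above the floor on any array, and CDH5, KDR, COL3A1, LUM, PTPRC and LYZ lay above it on none. The part of these differences in the members' ratios was not tested.

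**Figure D2:**
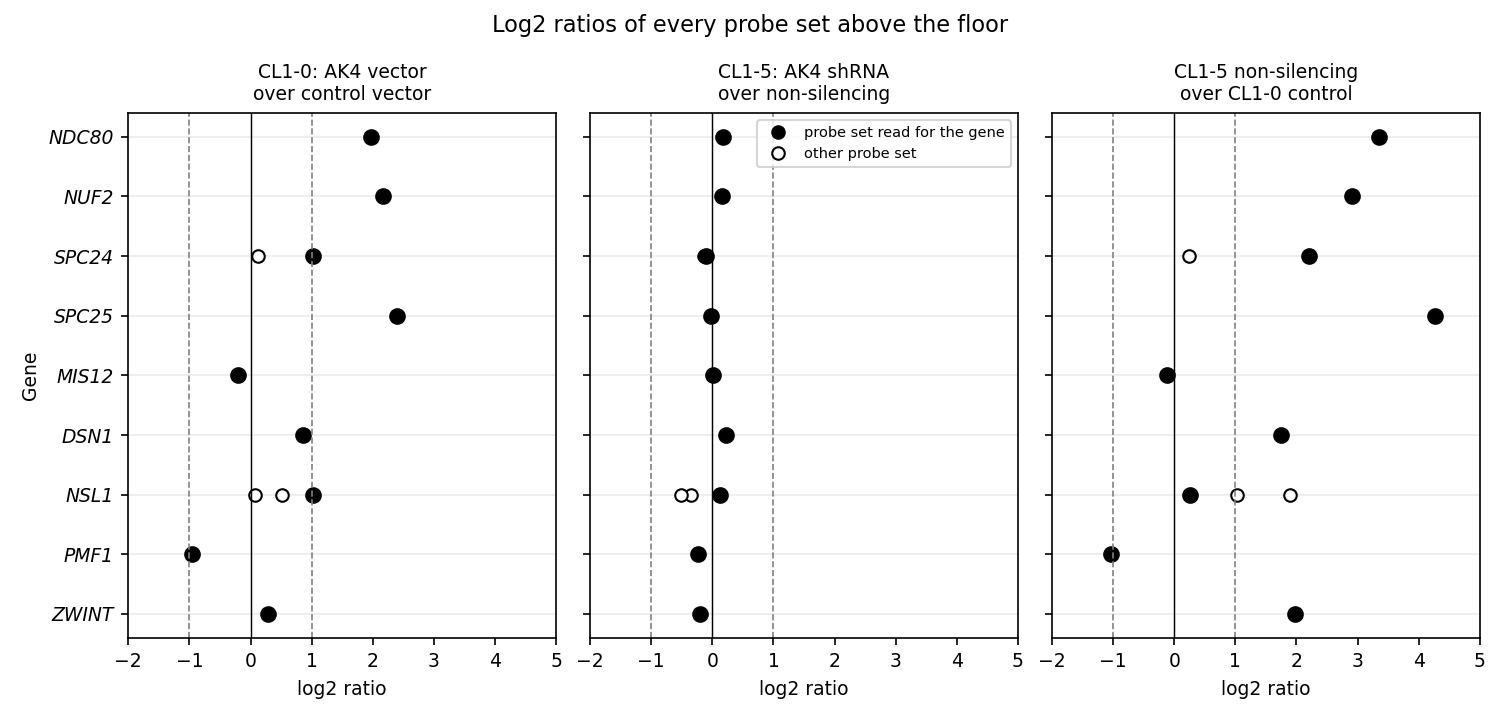
Log2 ratio (x axis) of every probe set above the floor for each gene (y axis) in the 3 comparisons, with 0 as a solid line and 2-fold as dashed lines. Filled points are the probe sets read for the genes and open points the others; the Ndc80 complex genes lie between 1.02 and 2.39 in the first panel, near 0 in the second and between 2.20 and 4.27 in the third, and the open points of NSL1 and SPC24 lie apart from the filled ones in the outer panels, while in the middle one that of SPC24 is hidden by its filled point.

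The 9 members were then set beside the other parts of the kinetochore. Counts in these lists and in those below are to be read beside the shares of all measured genes. At least 2-fold higher were 3.22% under the AK4 vector label, 17.1% in CL1-5 over CL1-0 and 0.0914% with AK4 shRNA. KNL1, which with the Ndc80 and Mis12 complexes makes up the microtubule-binding network, had a ratio of 0.82 for AK4 vector over control vector, -0.03 for AK4 shRNA over non-silencing shRNA and 2.08 for CL1-5 over CL1-0 controls. Of 16 genes of the constitutive centromere network, on which the outer kinetochore is built, 14 were on the array. Under the AK4 vector label 2 of the 14 were at least 2-fold higher, CENPU at 1.30 and CENPC, a subunit that binds the Mis12 complex, at 1.27. The list's median was 0.35, and CENPT was its lowest gene at -0.77. In CL1-5 7 of 14 were at least 2-fold higher than in CL1-0, led by CENPU at 2.41, CENPQ at 2.13, CENPM at 1.51 and CENPW at 1.45. The median was 1.12, and CENPT was again the lowest at -0.67.

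Next came CENPA, the histone variant that marks the centromere, and its loading factors. None of the 4 measured genes was 2-fold higher under the AK4 vector label, with CENPA at 0.91 and its chaperone HJURP at 0.67. In CL1-5 3 of 4 were higher than in CL1-0, HJURP at 3.67, CENPA at 2.28 and OIP5, a subunit of the Mis18 complex, at 2.28. Of the 6 genes of the RZZ complex and the corona, the outermost layer, none passed 2-fold under the AK4 vector label, where the motor CENPE was at 0.92 and CENPF at 0.72, but ZWILCH at -0.50 and ZW10 at -0.22 (median 0.35). In CL1-5 4 of 6 were higher than in CL1-0, CENPE at 2.66, the dynein adaptor SPDL1 at 2.50, CENPF at 2.11 and KNTC1 at 1.83 (median 1.97). In the Ska complex, which helps the Ndc80 complex to track microtubule ends, none of 3 genes passed 2-fold under the AK4 vector label, with SKA1 at 0.83, SKA3 at 0.44 and SKA2 at -0.07 (median 0.44). In CL1-5 2 of 3 were higher than in CL1-0, SKA3 at 2.64 and SKA1 at 1.80, while SKA2 was at -0.87 (median 1.80).

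Of the 9 genes of the spindle assembly checkpoint list, 8 had a ratio above 0 under the AK4 vector label in CL1-0, as did 56.1% of all measured genes. Under the AK4 vector label 3 of 9 were at least 2-fold higher, the kinases TTK at 1.49 and BUB1 at 1.30 and the pseudokinase BUB1B at 1.09, and the list's median was 0.95. In CL1-5 7 of 9 were higher than in CL1-0, led by BUB1 at 2.75, MAD2L1 at 2.74, CDC20 at 2.64 and BUB1B at 2.33. Of the 4 chromosomal passenger genes, whose kinase AURKB corrects faulty attachments, BIRC5 was higher under the AK4 vector label at 1.49. All 4 were higher in CL1-5 than in CL1-0, with CDCA8 at 3.05, BIRC5 at 2.53, AURKB at 2.26 and INCENP at 1.71. With AK4 shRNA none of the genes of these kinetochore lists reached 2-fold, and the list medians lay between -0.17 for the chromosomal passenger genes and 0.0074 for the checkpoint genes.

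Of the general markers of proliferation, all 8 were above the floor on every array. Under the AK4 vector label 3 of 8 were at least 2-fold higher, CDK1 at 1.67, TOP2A at 1.66 and CCNB1 at 1.05, while RRM2 was at 0.22 and PCNA at 0.34, and their median was 0.73. In CL1-5 8 of 8 were higher than in CL1-0, led by MKI67 at 4.09, CDK1 at 3.28, TOP2A at 2.94 and TYMS at 2.28, with a median of 2.26. The median over the 4 Ndc80 complex genes was 2.08 under the AK4 vector label and 3.13 for CL1-5 against CL1-0, and that over the 4 Mis12 complex genes was 0.33 and 0.07. These medians are descriptions, and differences between the lists were not tested. The 9 measured reference genes of general metabolism and structure had medians of -0.06 and 0.23, with YWHAZ at -0.49 and B2M at -0.38 under the AK4 vector label and PGK1 at 1.37 in CL1-5. With AK4 shRNA the proliferation markers had a median of 0.04 and the reference genes one of -0.04, and none passed 2-fold.

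The list of cell cycle transcription regulators holds E2F, retinoblastoma family and MuvB genes beside FOXM1 and MYBL2, so not all of them act late. It had a median of 0.05 over 17 genes under the AK4 vector label. Of these, only the repressor E2F8 was at least 2-fold higher, at 1.10, where 3.22% of all measured genes were. FOXM1 was at 0.09 and MYBL2 at 0.34. In CL1-5 6 of 17 were higher than in CL1-0, where 17.1% of all measured genes were. The largest ratios were FOXM1 at 2.55, E2F7 at 2.52, E2F8 at 2.30 and MYBL2 at 1.94. RB1, the retinoblastoma pocket protein, was lower at -1.48. With AK4 shRNA the list had a median of 0.07 with none of 16 past 2-fold, and its largest ratios were those of RBL2 at 0.48 and RB1 at 0.44. LIN54, the MuvB subunit that binds the CHR element, had a signal of 3.97 in CL1-5 and 14.9 in CL1-0 and was under the floor in CL1-5. It was therefore at least 2.14-fold lower there. RB1 and LIN54 were named after their values were seen, as the 2 of 17 genes of this list that were at least 2-fold lower, where 14.2% of all measured genes were.

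**Figure D3:**
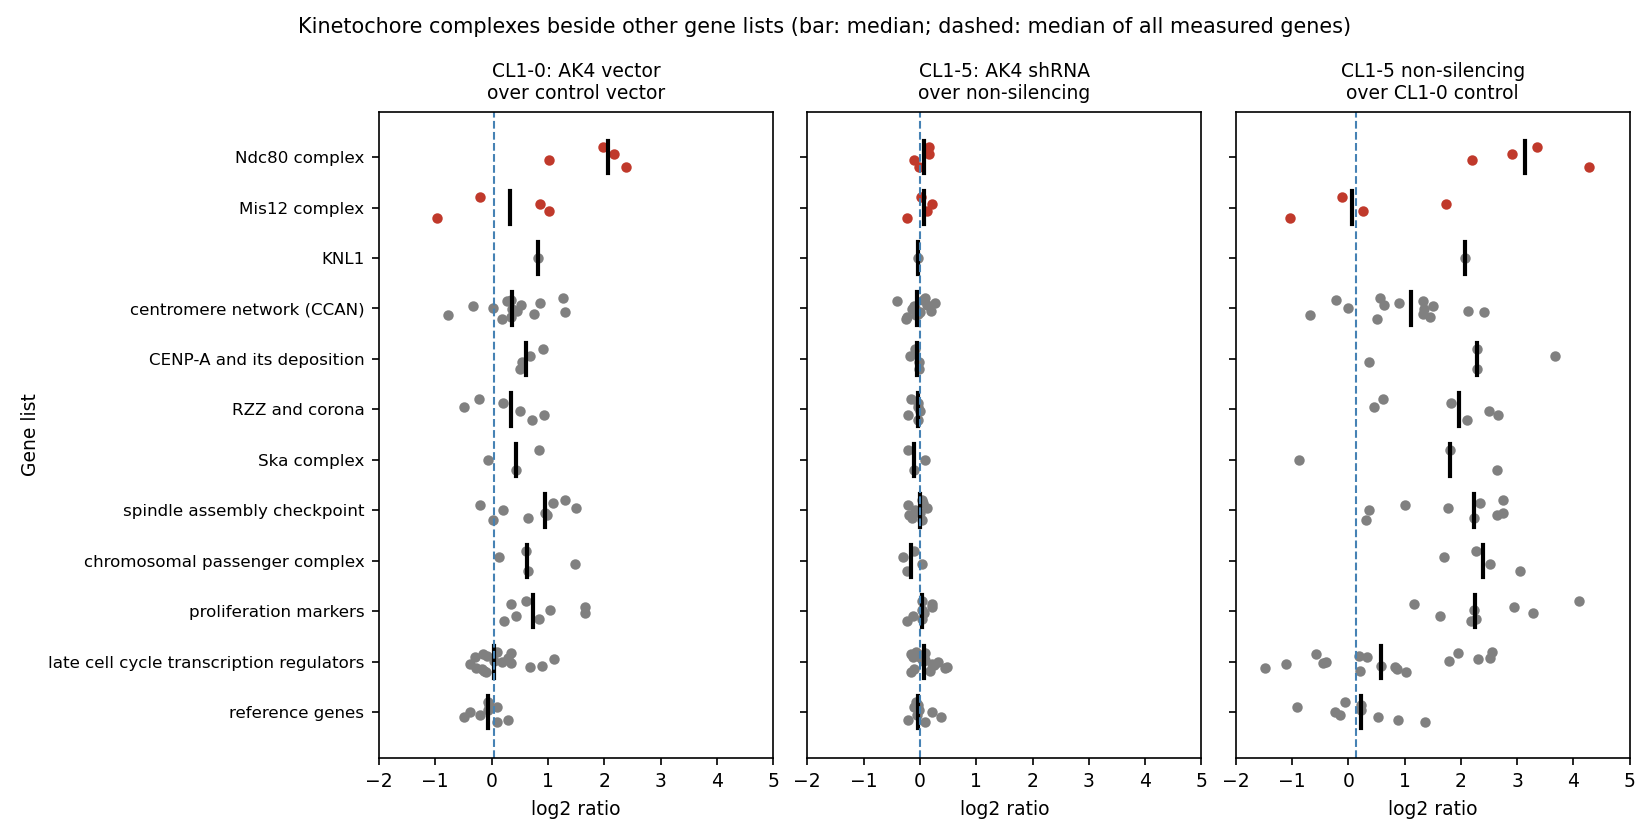
Log2 ratio (x axis) of each measured gene of the 2 complexes (red) and of 10 other lists (grey) in the 3 comparisons, with the list median as a black bar and the median of all measured genes dashed. The Ndc80 complex has medians of 2.08, 0.07 and 3.13 from left to right and the Mis12 complex 0.33, 0.07 and 0.07. The list labelled late cell cycle transcription regulators also holds E2F and retinoblastoma family genes that are not all late-acting.

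A search for the genes nearest to the mean pattern of the Ndc80 complex genes covered 12788 genes above the floor on all 4 arrays. The measure was the Euclidean distance between their 3 log2 ratios to the CL1-0 control array and the mean ratios of NDC80, NUF2, SPC24 and SPC25, which were 1.89 for AK4 vector, 3.24 for CL1-5 AK4 shRNA and 3.18 for CL1-5 non-silencing shRNA. The nearest was UNG, a uracil-DNA glycosylase, at a distance of 0.23 with ratios of 1.73, 3.23 and 3.34 in the same order. NUSAP1, a spindle-associated protein, was at 0.24, the mitotic kinase CDK1 at 0.27, the ubiquitin ligase gene NEURL1B at 0.27 and the topoisomerase TOP2A at 0.35. SCOC at 0.52, the mitotic cyclin CCNB2 at 0.64 and DNA2, a nuclease and helicase, at 0.65 followed. With 4 arrays this likeness rests on 3 ratios that share 1 control array. The members were left out of the search, and the mean stands for unlike genes. SPC24 was at 1.02 and SPC25 at 2.39 for AK4 vector, and at 2.20 and 4.27 for CL1-5 non-silencing shRNA. A gene near the mean is therefore not necessarily near each subunit.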

How the data were processed

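RNA of 4 cultures was hybridised to Affymetrix arrays in 1 colour. The authors deposited 1 intensity per probe set and array, on a linear scale; MAS5 is named per the submitters' processing notes, with its version and scaling target not given in the sources used here. Each array was scaled here to a common trimmed mean (2% removed at each end, without the 62 control probe sets), and the 40th percentile over the 4 scaled arrays served as a floor. Of 54675 probe sets, 41097 had 1 gene symbol, and 99.9% of these took their current symbol by gene identifier; 1 probe set naming a member with several symbols was left out. A gene was measured where at least 1 of both arrays lay above the floor. With 1 array per group, ratios carry no test.

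Groups came from the sample titles. The members and the 15 context lists (116 genes, 106 on the array) were chosen with earlier results of these data known. The text names all members, AK4, up to 4 genes per list past 2-fold (or the 2 largest) per comparison, and the 8 genes nearest in pattern. For AK4 shRNA, list genes are named only for KNL1 and the transcription regulators. Outside this rule, FOXM1 and MYBL2 are named under the AK4 vector label. CENPT, SKA2, ZWILCH, ZW10, RRM2, PCNA and the single cell type markers were named after their values were seen. The code was checked on simulated arrays without scatter, which tests its arithmetic only. Python 3.11.15, numpy 2.4.6, pandas 2.3.3 and matplotlib 3.10.9 were used. In all, 7 alternatives were tried.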

Additional observations from a re-analysis of the deposited data

How the results depend on the processing

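The number of members at least 2-fold higher under the AK4 vector label was 5, where 3.22% of all measured genes were. It was 3 with quantile normalization, where 2.20% of all measured genes were, and with values as deposited, where 3.13% were. It was also 3 with scaling to the median of probe sets above the floor (2.37%) and with probe sets averaged (1.67%). SPC25, NUF2 and NDC80 passed under each of these 4 alternatives. SPC24 and NSL1, both at 1.02, were at 0.79 and 0.98 after quantile normalization, and the cause was not tested. The members' median ratio in that comparison was 1.02 as reported and 0.57 with probe sets averaged. In the same comparison PMF1 was at -1.06 with scaling to the median of probe sets above the floor, against -0.96 as reported. For CL1-5 over CL1-0 controls 6 of 9 members were higher as reported, where 17.1% of all measured genes were; 7 of 9 with values as deposited, where 43.1% were; and 6 of 9 with quantile normalization, where 12.4% were. For AK4 shRNA the count was 0 under each of the 7 alternatives, where between 0.0324% and 0.108% of all measured genes were higher. Leaving out probe sets ending in _x_at or _s_at removed MIS12 and ZWINT, so 7 members were measured. NSL1 was then at 0.08 under the AK4 vector label and at 1.02 between the lines. With NSL1 among them and ZWINT not, 6 of 7 were higher in CL1-5, where 17.4% of all measured genes were. No paired analysis was possible because each group held 1 array. Leaving out a replicate was not possible for the same reason. The limits are 1 array per group, AK4 signals that were not higher under the AK4 vector label, and the single probe set of 7 members.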
